A study of Mus musculus with 39 samples.

Results

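The basolateral amygdala (BLA) of mice that carry a gene-trap allele of Lmo4 was compared with that of wild-type mice, gene by gene. The libraries were chosen by their titles, which name the region and the genotype, and 20 of the 39 libraries of the series are from the BLA. They are 9 libraries of Lmo4gt/+ mice and 11 of WT mice, each from a different animal of the C57BL/6J strain aged 8 to 12 weeks. No drug, alcohol or other treatment is given in the labels, and both genotypes share strain, age range and dissection. The nucleus accumbens (NAc) libraries of the same mice, 9 of Lmo4gt/+ and 10 of WT mice, were used only where a BLA value is set beside them. Lmo4gt/+ mice keep a WT copy of Lmo4 in every cell, and the allele is carried by the whole animal, so the BLA is not the only tissue affected. Where in the gene the trap sits is not given in the sources used here, and reads from exons before it would still count for Lmo4.

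LMO4 is a small nuclear protein built of LIM zinc-binding domains and little else. It does not bind DNA, and acts by joining transcription factors to cofactors such as LDB1, in competition with other LIM-only and LIM-homeodomain proteins. It is also known as an inhibitor of the phosphatase PTP1B. The BLA is made up mostly of glutamatergic projection neurons, with fewer GABAergic interneurons, and lies beside the central amygdala, the clusters of intercalated inhibitory neurons and the striatum. It is best known for learned fear and for reward, and the series, titled for the control of alcohol drinking, looked for genes under LMO4 control.

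Gene counts per library ran from 25424579 to 51021670 in Lmo4gt/+ BLA and from 23420970 to 43854730 in WT BLA (exact permutation test, two-sided, p = 0.237, 0.355 after adjustment over 3 measures). The share of reads in no gene (p = 0.597) and the share of counts from mitochondrially encoded genes (2.38% ± 0.283 in Lmo4gt/+ BLA and 2.56% ± 0.247 in WT BLA, SD; p = 0.151, adjusted 0.355) also missed the threshold in the same exact permutation test. Levels are given as CPM (reads of a gene scaled to the same total of gene counts in every library, with TMM factors computed among the 20 BLA libraries). Fold changes are of Lmo4gt/+ over WT on the log2 scale, and the value after ± is their standard error. The punches carried the marker of glutamatergic neurons of this region: Slc17a7, which encodes the vesicular glutamate transporter VGLUT1, ran from 1640 to 1950 CPM (median 1760) in Lmo4gt/+ BLA and from 1490 to 1920 CPM (median 1720) in WT BLA. The groups overlapped over almost their whole range (log2 fold change 0.03 ± 0.04, adjusted p = 0.998 by edgeR).

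Lmo4 was the only tested gene whose level separated the genotypes completely. Lmo4 (ENSMUSG00000028266.17, protein-coding, chromosome 3, positions 143851494 to 143868184, minus strand, NCBIM37) stood at 66.3, 72.9, 85.5, 90.8, 90.8, 91.6, 92.3, 101.9 and 106 CPM in the 9 Lmo4gt/+ libraries. In the 11 WT libraries Lmo4 stood at 140, 151, 154, 159, 159, 164, 164, 164, 167, 169 and 172 CPM. The highest Lmo4gt/+ library was 33.6 CPM below the lowest WT library. Lmo4 fell by 0.85 on the log2 scale (SE 0.0631, adjusted p = 2.82e-09 by edgeR), which put the level of Lmo4 in Lmo4gt/+ mice at 55.4% of that in WT mice, with a 95% interval of 50.6% to 60.6%. The libraries of mice 122 (66.3 CPM) and 147 (72.9 CPM) were the lowest among the mutants, and the coefficient of variation of Lmo4 was 14.2% in Lmo4gt/+ BLA and 5.75% in WT BLA. This spread of levels among mutants was not tested. The plot of Lmo4 by library shows the gap between the groups beside the levels of Gbp5, described further on.

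**Figure D1:**
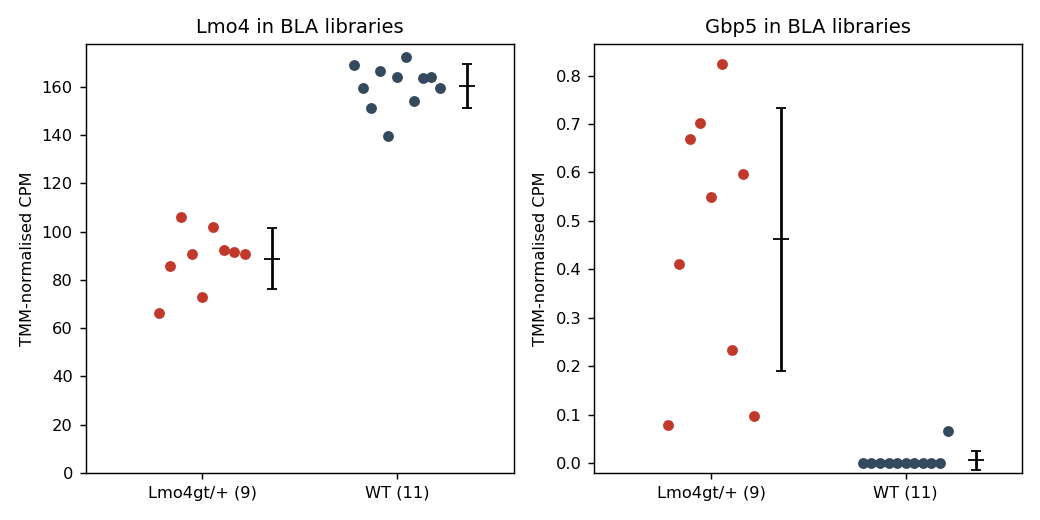
Level of Lmo4 (left) and Gbp5 (right) in every BLA library, in TMM-normalised CPM on a linear axis; each point is a library, the bar beside the points is the mean with the SD, and Lmo4gt/+ (9 libraries) stands left of WT (11). All Lmo4gt/+ libraries lie below all WT libraries for Lmo4, and for Gbp5 all lie above 0 while 10 of the WT libraries lie at 0.

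Beyond Lmo4, no gene that passed the count filter differed between the genotypes after adjustment. Of 17087 genes tested, 1 was called at an adjusted p under 0.05 by edgeR (0.00585%), and that gene was Lmo4, so 0 genes were called higher. At an unadjusted p under 0.05, 703 genes were counted (4.11% of those tested), 332 higher (1.94%) and 371 lower (2.17%). The gene next to Lmo4 in order of p, known by its identifier only, had an unadjusted p of 0.000133 and an adjusted p of 0.998. Genes lay evenly on both sides of 0, with 8507 of 17087 above it (49.8%). The levels gave the same picture without a model. Among the 17087 genes tested, the number with every Lmo4gt/+ library above every WT library was 0 (0.0%). The number with every Lmo4gt/+ library below every WT library was 1 (0.00585%), again Lmo4. The plot of all tested genes shows Lmo4 alone at the top.

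**Figure D2:**
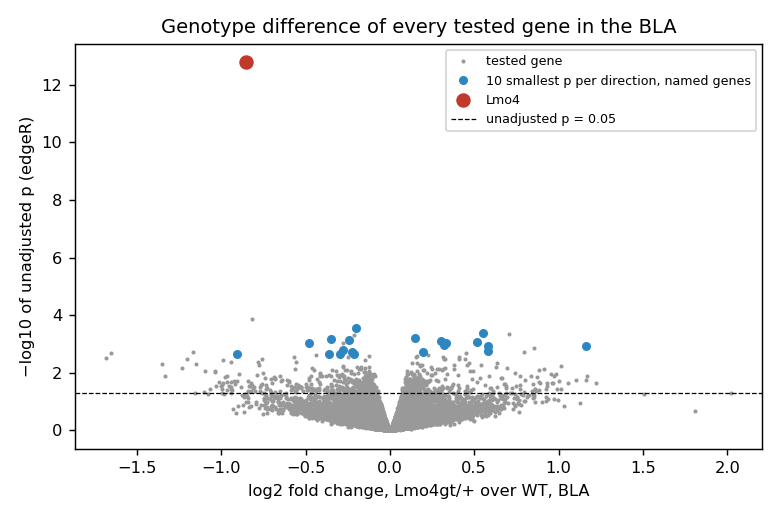
Each point is a tested gene, placed by its log2 fold change of Lmo4gt/+ over WT in the BLA (x) and by −log10 of its unadjusted edgeR p (y); the dashed line is an unadjusted p of 0.05. Lmo4 (red) stands at a log2 fold change of -0.85 far above all other genes, and the blue points, named genes with the smallest p in each direction, lie at the edge of the other genes.

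The precision of the comparison sets what these libraries could show. The 95% interval of the fold change excluded a 2-fold difference in either direction for 92.0% of the genes tested, a 1.5-fold difference for 77.1% and a 1.25-fold difference for 60.3%. For the remaining genes the interval reached a difference of that size. Bulk punches measure a mixture, so fewer cells of a type and less RNA per cell cannot be told apart.

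The genes of the family to which LMO4 belongs, and of its partners, were measured next. All 10 listed LIM-only, LDB and SSBP genes were expressed and tested, 5 of them above 0. Lmo4 passed the test and no other member did. Lmo1, another LIM-only gene, ran from 3.47 to 8.61 CPM (median 6.60) in Lmo4gt/+ BLA and from 3.19 to 5.70 CPM (median 5.07) in WT BLA, with 6 of 9 mutant libraries above the highest WT library and a log2 fold change of 0.38 ± 0.13 (unadjusted edgeR p = 0.00745). The lowest Lmo4gt/+ library for Lmo1, that of mouse 157, stood at 3.47 CPM, so the groups overlapped. In the NAc the log2 fold change of Lmo1 was 0.54 ± 0.16 (unadjusted edgeR p = 0.00257), from separate libraries of largely the same mice. Lmo1 did not pass adjustment in the NAc either, where Lmo4 was the only gene called. Lmo3, a LIM-only gene of neurons, had medians of 358 CPM in Lmo4gt/+ BLA and 348 CPM in WT BLA (log2 fold change 0.10 ± 0.05). Ldb2, which encodes a LIM-domain-binding cofactor, had medians of 83.5 and 77.8 CPM in Lmo4gt/+ and WT BLA (0.06 ± 0.05). The members other than these and Lmo4 lay between -0.06 and 0.07.

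Partners outside the family showed no called gene either. Of 10 tested genes for other LMO4-binding proteins, 5 lay above 0, and the median log2 fold change was -0.0014. Ptpn1, the gene of PTP1B, had medians of 45.3 CPM in Lmo4gt/+ BLA and 48.0 CPM in WT BLA (log2 fold change -0.04 ± 0.06). Esr1, the estrogen receptor alpha gene, had medians of 13.9 and 11.7 CPM in Lmo4gt/+ and WT BLA (0.23 ± 0.14). The receptor tyrosine kinase gene Alk, known as a gene repressed by LMO4 in the brain, ran from 10.2 to 15.1 CPM in Lmo4gt/+ BLA and from 10.3 to 16 CPM in WT BLA. Its log2 fold change of -0.14 ± 0.08 did not pass (unadjusted edgeR p = 0.10). Of the LIM-homeodomain genes, which share cofactors with LMO4, only 3 of 11 matched genes passed the count filter. Their log2 fold changes ran from -0.796 to 0.119, with 2 above 0 and none at an unadjusted edgeR p under 0.05. Among them, Lhx6 of interneurons had medians of 22.3 CPM in Lmo4gt/+ BLA and 20.2 CPM in WT BLA.

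Gbp5 stood apart from all genes below the count filter. GBP5 is an interferon-induced GTPase that takes part in the defence of cells against microbes and in inflammasome activation. Gbp5 (ENSMUSG00000040264.10, protein-coding, chromosome 3, positions 142159864 to 142185308, plus strand, NCBIM37) had 2, 3, 12, 15, 16, 22, 22, 24 and 25 reads in the 9 Lmo4gt/+ BLA libraries. The WT BLA libraries had 0 reads in 10 and 3 reads in that of mouse 160. The totals of 141 reads in Lmo4gt/+ BLA and 3 reads in WT BLA gave a ratio per library total of 51.2, with a 95% exact interval of 17.2 to 251 that covers counting error only. No other gene below the filter had reads in all 9 Lmo4gt/+ libraries and in at most 2 WT libraries. With no filter, edgeR called Gbp5 higher (log2 fold change 5.27 ± 0.723, adjusted p = 4.67e-06 over 31853 genes). So did DESeq2 (adjusted p = 2.7e-07) and edgeR on all 39 libraries in 1 model (adjusted p = 5.77e-06). The gene was picked because its reads lay almost all in 1 genotype, so these p-values are a description and not separate support. It entered the fit of all 39 libraries, which kept the count filter, through mutant libraries alone. The levels were low, from 0.0799 to 0.823 CPM in Lmo4gt/+ BLA, and the highest WT BLA library stood at 0.0658 CPM. All 9 mutant libraries thus lay above every WT library, by a narrow margin for the lowest. In NAc libraries of the same mice, reads of Gbp5 ranged from 4 to 25 in Lmo4gt/+ and were 0 in every WT library. Gbp5 lies 1.69 Mb from Lmo4 on the same chromosome in a cluster of related Gbp genes, and sharing of reads between them was not measured, so its level is uncertain.

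The stretch around the start of Gbp5 is shown because the gene is the one besides Lmo4 that any of the fits called. It is from RefSeq (GRCm38.p6, chr3:142496684-142496983, plus strand, 250 bases before and 50 after the start), a different build from that of the counts. Capitals mark each match to a gamma-activated site (TTCNNNGAA, which reads the same on both strands) or to the core of an interferon-stimulated response element (TTCNNTTTC, searched on both strands).
Gbp5 promoter: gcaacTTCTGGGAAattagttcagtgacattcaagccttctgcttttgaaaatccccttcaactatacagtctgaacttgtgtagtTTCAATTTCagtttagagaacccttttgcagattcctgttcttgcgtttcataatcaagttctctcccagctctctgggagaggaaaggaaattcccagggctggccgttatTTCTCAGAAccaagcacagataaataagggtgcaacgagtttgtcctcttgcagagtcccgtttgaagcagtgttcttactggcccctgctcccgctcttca
The window holds 2 matches to the gamma-activated site and 1 to the response element core, and none of them overlap. Of 32851 promoter windows of this length, 8.3% hold the gamma-activated site, 8.56% the response element core and 1.07% both. The core was shortened after matches to a longer form were seen, so these shares are a description and not a test. A match is a run of letters and not evidence that a factor binds there.

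No tested interferon-stimulated gene passed beside Gbp5. Of 17 matched genes of that list 13 were tested, with 5 above 0 and a median log2 fold change of -0.04. Ifit3 ran from 2.24 to 3.27 CPM (median 2.75) in Lmo4gt/+ BLA and from 1.67 to 3.20 CPM (median 2.12) in WT BLA, for a log2 fold change of 0.31 ± 0.14 (unadjusted edgeR p = 0.0378). Irgm1, an immunity-related GTPase gene, ran from 3.60 to 5.47 CPM in Lmo4gt/+ BLA and from 4.14 to 5.89 CPM in WT BLA, with a log2 fold change of -0.25 ± 0.10 (unadjusted edgeR p = 0.0202). The members therefore lay on both sides of 0. Gbp7, a neighbour of Gbp5 in the cluster, ran from 2.95 to 5.83 CPM in Lmo4gt/+ BLA and from 2.19 to 4.40 CPM in WT BLA (0.32 ± 0.17, unadjusted edgeR p = 0.0593).

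Genes close to Lmo4 were counted because a gene-trap allele travels with the chromosome on which it was made. Within 5 Mb of Lmo4, 31 other genes passed the count filter and were tested, and 1 had an unadjusted p under 0.05 (3.23%), beside 4.11% of all genes other than Lmo4. That gene was Pdlim5, 1.948 Mb away, and among the 19 genes within 2 Mb it made up 5.26%. Gbp5 was under the filter and is not in these counts. At 5 to 20 Mb, 4.04% of 99 genes did, further along the chromosome 4.29% of 606 genes did, and on other chromosomes 4.08% of 14381 genes did. The median of the absolute log2 fold change was 0.0741 within 2 Mb, 0.0586 within 5 Mb and 0.0524 within 10 Mb. On other chromosomes it was 0.0559, and over all genes other than Lmo4 0.061. These differences between windows were not tested. Pkn2, a protein kinase gene 1.398 Mb away, had medians of 31.1 CPM in Lmo4gt/+ BLA and 34.2 CPM in WT BLA (log2 fold change -0.10 ± 0.05).

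The named genes with the smallest p in each direction did not pass adjustment, all 20 having an adjusted p of 0.998 by edgeR, with unadjusted p from 0.000272 to 0.00226. They were picked for their p in this comparison, so their values are a description. For 13 of the 20, all 9 Lmo4gt/+ libraries lay on the same side of the WT median, and for all 20 the groups overlapped. Among those above WT, Nkx2-2, a homeodomain transcription factor gene of the oligodendrocyte lineage, ran from 2.52 to 4.29 CPM (median 3.52) in Lmo4gt/+ BLA and from 1.82 to 3.10 CPM (median 2.29) in WT BLA. Its log2 fold change was 0.55 ± 0.14, with 6 of 9 mutant libraries above the highest WT library. Fbxw5, the gene of a substrate receptor of a ubiquitin ligase, ran from 69.9 to 87.9 CPM (median 78.0) in Lmo4gt/+ BLA and from 67.2 to 74.1 CPM (median 70.4) in WT BLA. Its log2 fold change was small, 0.15 ± 0.04, yet 8 of 9 mutant libraries exceeded the highest WT library and only that of mouse 157, at 69.9 CPM, was below the WT median.

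Nfe2l2, which encodes NRF2, the main activator of antioxidant genes, ran from 7.07 to 9.86 CPM (median 8.63) in Lmo4gt/+ BLA and from 6.31 to 8.92 CPM (median 6.80) in WT BLA (0.30 ± 0.08). All 9 mutant libraries were above the WT median. The list of NRF2 targets did not share that direction: of 11 tested genes, Nfe2l2 included, 5 lay above 0 and the median was -0.01. Txnrd1, a thioredoxin reductase gene and target of NRF2, had medians of 52.2 CPM in Lmo4gt/+ BLA and 57.6 CPM in WT BLA (-0.14 ± 0.05, unadjusted edgeR p = 0.0145). Gsto2, a glutathione transferase gene, had the widest ratio of the 20 genes, from 0.343 to 1.09 CPM (median 0.704) in Lmo4gt/+ BLA against 0.155 to 0.899 CPM (median 0.286) in WT BLA (1.16 ± 0.32). Only 2 of the 9 mutant libraries exceeded the highest WT library, that of mouse 160. Acacb, the acetyl-CoA carboxylase that restrains import of fatty acids into mitochondria, ran from 4.23 to 10.9 CPM (median 5.45) in Lmo4gt/+ BLA and from 2.85 to 5.20 CPM (median 4.35) in WT BLA. Its log2 fold change was 0.52 ± 0.14, and 0.36 without the library of mouse 127, which held the 10.9 CPM.

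The others above WT differ in role. Npas1, a transcriptional repressor gene of interneurons, had medians of 10.8 CPM in Lmo4gt/+ BLA and 8.40 CPM in WT BLA (0.33 ± 0.09). Lgals3bp, a secreted glycoprotein gene, had medians of 12.8 and 10.1 CPM in Lmo4gt/+ and WT BLA (0.32 ± 0.09), and Mxra8, a gene of a cell surface adhesion protein, 2.81 and 2.04 CPM (0.58 ± 0.16). For Lgals3bp and Mxra8 all 9 mutant libraries lay above the WT median and 5 of 9 above the highest WT library. Fam46c, a poly(A) polymerase gene, had medians of 4.35 CPM in Lmo4gt/+ BLA and 2.54 CPM in WT BLA (0.58 ± 0.17). Pdlim5, which encodes a scaffold protein with PDZ and LIM domains, ran from 28.2 to 38.2 CPM (median 30.2) in Lmo4gt/+ BLA and from 25.3 to 30.4 CPM (median 27.6) in WT BLA (0.20 ± 0.06). Pdlim5 is therefore both in the ranking over the genome and the gene with the smallest p near Lmo4.

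Below WT, the smallest p belonged to Sulf2. Sulf2, an extracellular enzyme gene that removes sulfate groups from heparan sulfate, ran from 48.7 to 62.8 CPM (median 55.5) in Lmo4gt/+ BLA and from 58.0 to 73.1 CPM (median 63.5) in WT BLA. All 9 mutant libraries were below the WT median and 7 of 9 below the lowest WT library, for a log2 fold change of -0.20 ± 0.05. Fgf1, a growth factor gene whose signalling depends on heparan sulfate, ran from 25.7 to 32.7 CPM (median 28) in Lmo4gt/+ BLA and from 27.7 to 41.2 CPM (median 32.4) in WT BLA (-0.22 ± 0.06). For Fgf1, 8 of 9 mutant libraries were below the WT median and 3 of 9 below the lowest WT library.

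The remaining genes below WT had log2 fold changes from -0.23 to -0.91. Clcf1, a cytokine gene that signals through the CNTF receptor, ran from 0.224 to 0.841 CPM (median 0.479) in Lmo4gt/+ BLA and from 0.533 to 1.29 CPM (median 0.964) in WT BLA (-0.91 ± 0.27). Rai14, the gene of an actin-associated protein, ran from 10.01 to 19.7 CPM (median 13.4) in Lmo4gt/+ BLA and from 14.8 to 25.8 CPM (median 20.1) in WT BLA (-0.48 ± 0.13). For each of these genes 5 of 9 mutant libraries were below the lowest WT library. Abcb10, a transporter gene of the inner mitochondrial membrane, had medians of 29.3 CPM in Lmo4gt/+ BLA and 35.5 CPM in WT BLA (-0.24 ± 0.06). Cdkal1, an enzyme gene that modifies transfer RNA, had medians of 7.26 and 8.63 CPM in Lmo4gt/+ and WT BLA (-0.30 ± 0.09). Itgam, which encodes the integrin CD11b of microglia, had medians of 4.68 CPM in Lmo4gt/+ BLA and 5.92 CPM in WT BLA (-0.36 ± 0.11), whereas the 12 microglia genes tested, Itgam included, had a median of 0.02 with 7 above 0. Mob3a (-0.35 ± 0.09), the zinc finger gene Zfp948 (-0.28 ± 0.08) and Stk40, a kinase-like gene (-0.23 ± 0.07), complete the ranking. The plot of the ranked genes shows every library.

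**Figure D3:**
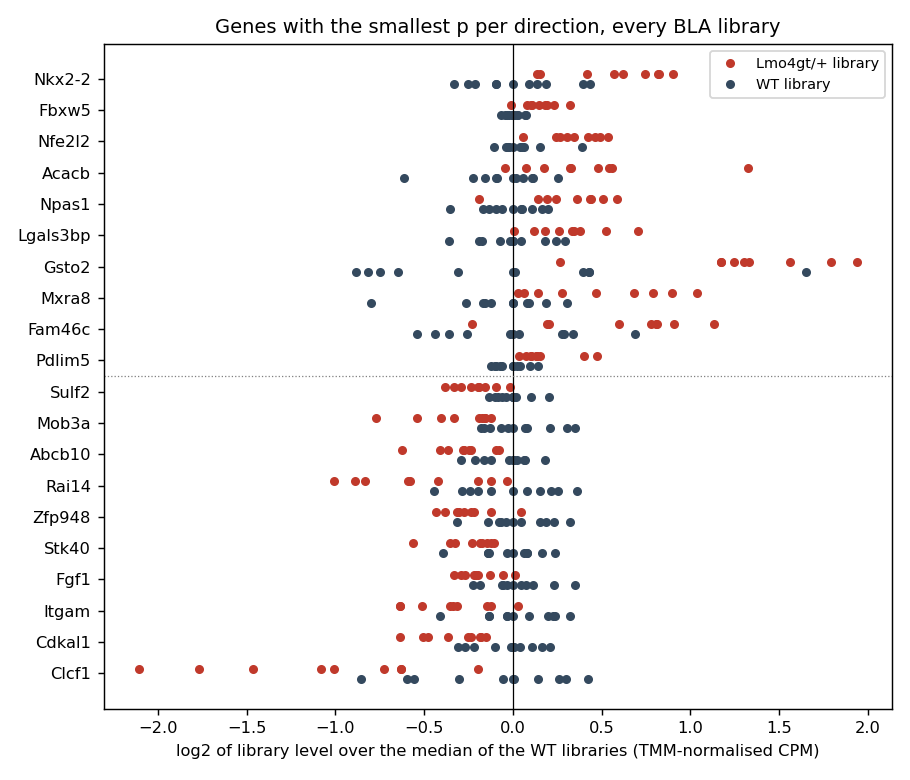
For the 20 named genes with the smallest p, 10 above WT (upper rows) and 10 below (lower rows), each point is a library, placed by the log2 of its level over the median of the WT libraries; Lmo4gt/+ libraries (red) are drawn above WT libraries (dark) in each row. The groups are shifted but overlap in every row, and the library of mouse 127 stands apart for Acacb at 10.9 CPM.

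The cell makeup of the punches varied between libraries of both genotypes. The 37 gene lists held 403 different genes that passed the filter, of which 29 had an unadjusted p under 0.05 (7.2%, 14 higher and 15 lower). Because the lists were chosen with earlier results known, this share is not set against the 4.11% over all genes as a finding. Counts of list members above 0 stand beside 49.8% over all genes tested. Of 16 genes of medium spiny neurons, the main neuron type of the striatum, all were tested and 9 lay above 0, with a median log2 fold change of 0.0043. Their summed level ran from 1360 to 2510 CPM (median 1480) in Lmo4gt/+ BLA and from 1390 to 2440 CPM (median 1580) in WT BLA. The highest were the libraries of mice 159 and 149 among mutants (2510 and 2340 CPM) and of mice 156 and 129 among WT mice (2440 and 2390 CPM). Drd2, the dopamine D2 receptor gene, was 26.7 and 30.6 CPM in those mutant libraries and 28.9 and 33.4 CPM in those WT libraries, with medians of 2.89 CPM in Lmo4gt/+ BLA and 5.11 CPM in WT BLA. Without these 4 libraries edgeR still called Lmo4 alone, and 660 genes had an unadjusted p under 0.05.

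Genes of the inhibitory cell groups beside the BLA lay mostly below 0. All 8 tested genes of intercalated and other inhibitory amygdala neurons were below 0 (median log2 fold change -0.24), as were 8 of 9 of the central amygdala (median -0.21). No gene of either list passed after adjustment. Nts, the neurotensin gene of central amygdala neurons, ran from 2.04 to 5.96 CPM (median 3.90) in Lmo4gt/+ BLA and from 3.38 to 10.5 CPM (median 5.70) in WT BLA (-0.48 ± 0.18, unadjusted edgeR p = 0.0152). The summed level of the intercalated list ran from 148 to 547 CPM (median 202) in Lmo4gt/+ BLA and from 195 to 727 CPM (median 287) in WT BLA, highest in the same libraries that were highest for striatal genes. With 2 surrogate variables in the fit the medians were -0.04 for the intercalated and -0.06 for the central amygdala list. Of 12 genes of BLA projection neurons, 5 were above 0 and the median was -0.08. Their summed level ran from 6100 to 6850 CPM (median 6700) in Lmo4gt/+ BLA and from 5620 to 7040 CPM (median 6540) in WT BLA. For that sum, 7 of 9 mutant libraries were above the WT median. Etv1, a transcription factor gene of that list, had medians of 301 CPM in Lmo4gt/+ BLA and 295 CPM in WT BLA, and a log2 fold change of -0.14 ± 0.09.

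**Figure D4:**
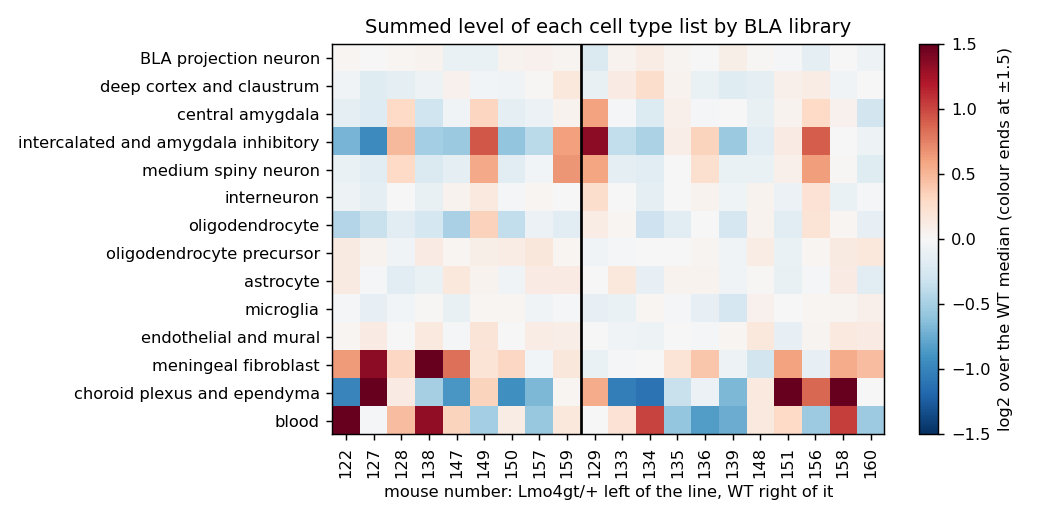
Each row is a cell type list and each column a BLA library, Lmo4gt/+ left of the line and WT right of it; colour is the log2 of the list's summed CPM over the median of the WT libraries, ending at ±1.5. Striatal and intercalated lists are high together in mice 128, 149, 159, 129 and 156, the central amygdala list is high in mice 128, 149, 129 and 156, and choroid plexus genes are highest in mice 127, 151 and 158.

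Interneuron genes were split. Of 15 tested, 8 were above 0 and the median was 0.01, with 2 at an unadjusted p under 0.05, Npas1 and Htr3a. Htr3a, the serotonin-gated channel gene that marks a class of interneurons, ran from 6.08 to 12.4 CPM (median 9.98) in Lmo4gt/+ BLA and from 4.85 to 9.93 CPM (median 7.83) in WT BLA. Its log2 fold change was 0.41 ± 0.12 (unadjusted edgeR p = 0.0028), with 5 of 9 mutant libraries above the highest WT library. Slc32a1, the vesicular GABA transporter gene shared by inhibitory neurons, had medians of 75.8 CPM in Lmo4gt/+ BLA and 88.1 CPM in WT BLA.

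Genes of mature oligodendrocytes and their precursors lay on opposite sides of 0. Of 14 tested oligodendrocyte genes, which make myelin, 1 was above 0 and the median log2 fold change was -0.14, with none at an unadjusted p under 0.05. Mobp, a myelin gene, had medians of 213 and 281 CPM in Lmo4gt/+ and WT BLA (-0.20 ± 0.12). For Mobp, 8 of 9 mutant libraries were below the WT median while that of mouse 149 was the highest of all 20. Of 8 tested precursor genes, 7 were above 0 (median 0.06), with Nkx2-2 at 0.55 and Pdgfra, the growth factor receptor that defines these cells, at 0.10 ± 0.05 (unadjusted edgeR p = 0.0416). Pdgfra had medians of 96.3 CPM in Lmo4gt/+ BLA and 88.9 CPM in WT BLA. Sox10, used by both stages, stood at 0.13 ± 0.06.

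Astrocyte, vascular and border genes came next. Of 14 astrocyte genes 11 were above 0 (median 0.03), and Fgfr3, a growth factor receptor gene of astrocytes, had medians of 103 CPM in Lmo4gt/+ BLA and 95.9 CPM in WT BLA (0.13 ± 0.05, unadjusted edgeR p = 0.0118). Gfap, the astrocyte filament gene, ran from 39.4 to 84.4 CPM in Lmo4gt/+ BLA and from 30.7 to 59.8 CPM in WT BLA (0.24 ± 0.14). Of 14 endothelial and mural genes 11 were above 0, with Tek, the angiopoietin receptor gene, at 0.17 ± 0.08 (unadjusted edgeR p = 0.0444). All 9 tested genes of meningeal fibroblasts were above 0 (median 0.44), among them Col1a1, a collagen gene (0.45 ± 0.21, unadjusted edgeR p = 0.044), and Dcn, the decorin gene (0.67 ± 0.36). Their summed level ran from 35.4 to 107 CPM (median 45.2) in Lmo4gt/+ BLA and from 30 to 55.4 CPM (median 36.4) in WT BLA, and the libraries of mice 138 and 127, at 107 and 92.0 CPM, were the highest. Without the library of mouse 138 the median of this list was 0.16. All 5 tested blood genes were above 0 (median 0.42, and 0.04 without mouse 138), with Alas2, an enzyme gene of haem synthesis in red cells, at 0.80 ± 0.23 (unadjusted edgeR p = 0.00186). Choroid plexus tissue marked single libraries: Ttr, its transport protein gene, reached 505 CPM in that of mutant mouse 127 and 139 CPM in that of WT mouse 151, against medians of 2.41 CPM in Lmo4gt/+ BLA and 2.54 CPM in WT BLA. With a cell type component in the fit, a principal component of the cell type lists that loads mostly on choroid plexus (loading -0.988), edgeR called Lmo4 alone and 684 genes had an unadjusted p under 0.05.

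Receptor systems linked with reward and stress were then read from their lists. Of 8 opioid peptide and receptor genes, 1 was above 0 and the median log2 fold change was -0.36. Oprk1, the kappa opioid receptor gene, ran from 9.50 to 36.5 CPM (median 19.4) in Lmo4gt/+ BLA and from 21.8 to 43.9 CPM (median 26.7) in WT BLA, with 6 of 9 mutant libraries below the lowest WT library (-0.55 ± 0.24, unadjusted edgeR p = 0.0351). Oprm1, the mu opioid receptor gene, ran from 3.94 to 7.48 CPM (median 5.75) in Lmo4gt/+ BLA and from 4.62 to 9.82 CPM (median 6.93) in WT BLA (-0.36 ± 0.14, unadjusted edgeR p = 0.0121). Oprd1, the delta receptor gene, stood at -0.16 ± 0.10. None passed after adjustment, and the opioid list shares Oprm1 and the enkephalin gene with the intercalated list. With 2 surrogate variables in the fit the median of the opioid list was -0.14. Crhr2, a receptor gene for the urocortins, had medians of 1.63 CPM in Lmo4gt/+ BLA and 2.09 CPM in WT BLA (-0.38 ± 0.18, unadjusted edgeR p = 0.0396). Crhr1, the receptor gene for corticotropin-releasing hormone, stood at 0.06 ± 0.10, with medians of 13.7 and 13 CPM in Lmo4gt/+ and WT BLA.

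Genes of ion channels and fast transmission had no called member. Of 4 tested glycine receptor genes 1 was above 0, with a median of -0.19. Glrb, the most abundant of them in CPM, had medians of 192 CPM in Lmo4gt/+ BLA and 189 CPM in WT BLA (0.02 ± 0.04). Glra2 had medians of 15.8 CPM in Lmo4gt/+ BLA and 20.7 CPM in WT BLA (-0.32 ± 0.12, unadjusted edgeR p = 0.0116), and Glra1, near the filter, 0.352 and 0.748 CPM (-0.97 ± 0.45, unadjusted edgeR p = 0.0387). Of 15 AMPA, kainate and NMDA receptor genes 12 were above 0 with a median of 0.04, and of 14 GABA receptor genes 10 were above 0 with a median of 0.06, with no gene of either list at an unadjusted p under 0.05. Of 23 calcium-handling genes, which LMO4 has been linked to through the ryanodine receptor, 19 were above 0, with a median of 0.03. Slc8a3, a sodium-calcium exchanger gene, ran from 28.5 to 37.9 CPM (median 32.1) in Lmo4gt/+ BLA and from 25.1 to 32.3 CPM (median 28) in WT BLA, all 9 mutant libraries being above the WT median (0.18 ± 0.06, unadjusted edgeR p = 0.00517). Kcnn3, a calcium-activated potassium channel gene, had medians of 60.4 CPM in Lmo4gt/+ BLA and 56.7 CPM in WT BLA (0.17 ± 0.08, unadjusted edgeR p = 0.0353), the library of mouse 122 being highest at 85.8 CPM.

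Of 10 tested genes of alcohol and aldehyde metabolism, 6 were above 0 and the median was 0.02. Acss1, which turns acetate into acetyl-CoA in mitochondria, ran from 22.5 to 32.1 CPM (median 26.8) in Lmo4gt/+ BLA and from 21.9 to 26.7 CPM (median 24.5) in WT BLA, with 5 of 9 mutant libraries above the highest WT library (0.16 ± 0.06, unadjusted edgeR p = 0.0158). Aldh1a1, a retinaldehyde dehydrogenase gene, had medians of 8.11 and 10.05 CPM in Lmo4gt/+ and WT BLA (-0.33 ± 0.17). None passed after adjustment.

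Lists of cell activity and stress leaned below 0 by small amounts, which was not tested. Over all genes tested, 49.8% lay above 0 and 4.11% had an unadjusted edgeR p under 0.05. Of 16 immediate early genes, which neurons switch on with activity, 2 were above 0 (median -0.08) and none had an unadjusted p under 0.05. Fos had medians of 15.6 CPM in Lmo4gt/+ BLA and 20.1 CPM in WT BLA, and a log2 fold change of -0.36 ± 0.29. None of 12 heat shock genes was above 0 (median -0.09), with 2 at an unadjusted p under 0.05. Those were Bag3, a co-chaperone gene with medians of 3.52 CPM in Lmo4gt/+ BLA and 4.87 CPM in WT BLA (-0.35 ± 0.13), and Hspb1, a small heat shock protein gene with medians of 1.24 and 2.23 CPM (-0.60 ± 0.24). Of 13 mitochondrially encoded genes 1 was above 0 (median -0.11). The 3 of them with an unadjusted p under 0.05 were mt-Nd6, mt-Co3 and mt-Atp6. mt-Co3 and mt-Atp6 stood near 2 to 3 CPM at the median in both genotypes, and reads with more than a single placement are not in these counts, while mt-Nd6 overlaps another gene on the opposite strand. Of 21 cytosolic ribosomal protein genes 2 were above 0, with a median of -0.04. With 2 surrogate variables in the fit the median of the ribosomal list was 0.003. The plot of the lists shows each member.

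**Figure D5:**
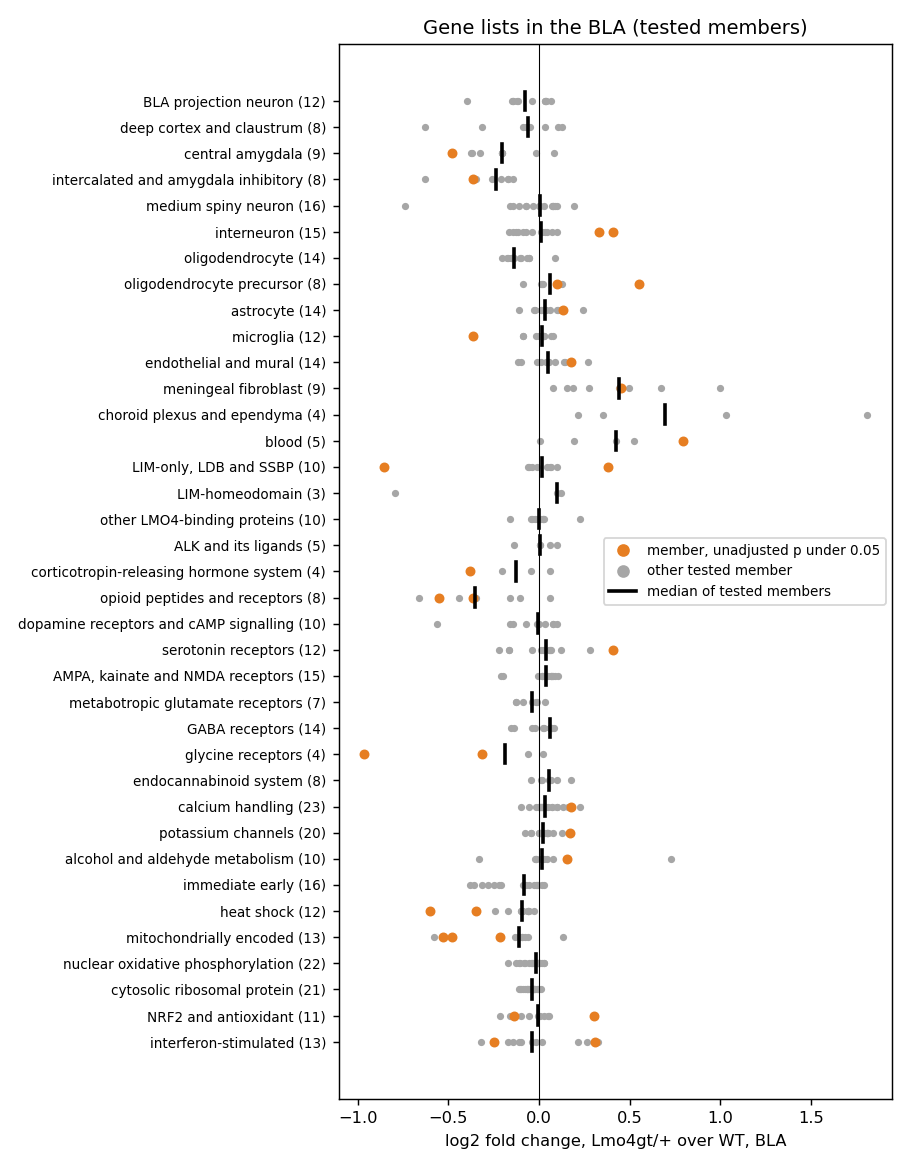
Each row is a gene list with its number of tested members; each point is a member, placed by its log2 fold change of Lmo4gt/+ over WT in the BLA, orange where its unadjusted edgeR p was under 0.05, and the black bar is the median of the tested members. Most medians lie near 0, and of all the points Lmo4 alone passed after adjustment.

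The BLA differences were set beside those of the NAc in the mice that gave both regions. Lmo4 averaged 55.7 ± 9.21 CPM in Lmo4gt/+ NAc and 89.3 ± 11.9 CPM in WT NAc (SD; log2 fold change -0.68 ± 0.09), on a scale set among the NAc libraries. The effect on Lmo4 in the BLA minus that in the NAc was -0.18 ± 0.13 on the log2 scale (unadjusted edgeR p = 0.168), and -0.09 without mouse 122. The NAc library of that mouse bears the mutant name in its title and wild type in its genotype field. No gene passed the test of the interaction among 18325 (0.0% by edgeR, and 0 also with limma-voom), and 543 had an unadjusted p under 0.05 (2.96%). For Smoc1, a matrix protein gene, the effect was 0.24 ± 0.12 in the BLA and -0.48 ± 0.15 in the NAc, a difference of 0.74 ± 0.17 (unadjusted edgeR p = 0.000145). For Nfe2l2 the effect of 0.30 in the BLA stood beside -0.13 ± 0.12 in the NAc, and the difference was 0.48 ± 0.12 (unadjusted edgeR p = 0.000663). Nfe2l2 was already picked for its small p in the BLA, so its difference is a description. It was not among the 3 genes with the smallest interaction p in its direction. For mt-Nd6 the effect was -0.22 ± 0.10 in the BLA and 0.28 ± 0.13 in the NAc, a difference of -0.47 ± 0.10. Cdnf, a neurotrophic factor gene, stood at -0.64 ± 0.25 in the BLA and 0.50 ± 0.24 in the NAc, a difference of -1.28 ± 0.33. These are among the most extreme of the 18325 genes tested, with an adjusted edgeR p of 0.887 for Smoc1 and mt-Nd6 and of 1.0 for Nfe2l2 and Cdnf.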

How the data were processed

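RNA was sequenced from micropunches of frozen mouse brain cut at 300 µm, after DNase treatment and polyA enrichment, per the labels' protocols. The authors deposited raw whole-number read counts for each Ensembl gene in each library. HISAT2, HTSeq 0.11.1, MultiQC 1.7 and DESeq2 and the build mm9 are named in the submitters' processing notes. The sources used here give no settings for them, strand handling included, so a gene and its antisense partner may share reads. Reads with several placements were not counted, which leaves near-identical copies uncertain. Each table lists 51826 genes by identifier; 32708 had a name in GENCODE vM1 (NCBIM37, the assembly called mm9), and they held 98.324% of gene counts. Only 13979 matched with their version, so gene limits used in counting could differ from the coordinates given.

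Reads in no gene (12.5% to 17.7% of the reads of a BLA library) stayed out of library sizes and tests. The 20 BLA libraries were fitted alone with edgeR 4.0.16 in R 4.3.3 (TMM factors, filterByExpr with a minimum count of 10, robust quasi-likelihood F test, two-sided, Benjamini-Hochberg adjustment over all genes tested, threshold 0.05). Alternatives used other size factors and filters, DESeq2 1.42.0, limma 3.58.1 (voom with quality weights), 2 surrogate variables (sva 3.50.0), a cell type component, and left out each library in turn. The interaction of region with genotype kept the mouse as a replicate block in 38 libraries of 19 mice. A BLA and a NAc library whose titles carry the same number were taken as 1 mouse, since the numbers give the 9 and 11 mice of the series' design text. Their deviations from group means correlated with a median r of 0.0472 across genes, against -0.00123 for different mice. Of the 19 pairs, 6 had an r over 0.1, so these correlations say little about the pairing. The fit was tested on simulated data first.

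The members, the 37 gene lists, the rule for named genes and the tests were chosen with earlier results of these data known. The rule takes Lmo4, the 10 named genes with the smallest p per direction, genes with reads in every library of 1 genotype and at most 2 of the other, genes called in any alternative, up to 3 genes per list by p and markers that define the tissue, the 3 genes nearest by p within 5 Mb of Lmo4 and Gbp5, and 3 per direction for the interaction. Lists were described by counts and medians without a test. The symbols Myrf, Lhfpl3, Lhx8 and Ifi27 had no match, and Drd1 is named Drd1a in that annotation. No 2 libraries held identical counts, and replicate libraries differed by more than sampling noise (chi-square over its degrees of freedom at least 6.09). The letters of the response element searched in the promoter were shortened to its core after matches to a longer form were seen. Nothing in the labels says more of sex, litter or batch.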

Additional observations from a re-analysis of the deposited data

Results flagged for a closer look

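The values of 77 measures were screened in the 9 Lmo4gt/+ BLA libraries for a highest or lowest library set apart from the rest by a gap over Dixon's critical share of the group's range (95% level), which chance gives in about 1 of 20 groups. In 7 of them a library stood apart. The library of mouse 127 was the highest for Ttr (505 CPM, next 2.98), for Kl, another choroid plexus gene (63.5 CPM, next 4.97), for Foxj1, a gene of ciliated ependymal cells (6.1 CPM, next 2.89), and for Acacb (10.9 CPM, next 6.41). Acacb and the choroid plexus genes were thus highest in the same library. In the library of WT mouse 151, where Ttr reached 139 CPM, Acacb stood at 4.35 CPM, the WT median. A link between Acacb and choroid plexus tissue was not tested. The log2 fold change of Acacb was 0.52, 0.48 with a cell type component that loads mostly on choroid plexus genes in the fit, and 0.36 without that library. The library of mouse 149 was the highest for the myelin gene Mobp (354 CPM, next 265). The library of mouse 147 was the highest for Pkn2 (36.5 CPM, next 31.8), and that of mouse 128 the lowest for Lhx6 (16.2 CPM, next 20.1).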

How the results depend on the processing

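Lmo4 was called lower in all 29 alternative fits of the BLA comparison, with log2 fold changes from -0.89 to -0.79, and from -0.89 to -0.81 where each library was left out in turn. The number of genes called lower was 1 in each of them. The number called higher was 0 except with DESeq2, with no filter and with all 39 libraries in 1 model, where it was 1 and the gene was Gbp5. Genes at an unadjusted p under 0.05, 703 of 17087 in the fit as reported, were 1068 of 31852 with DESeq2 and 2591 of 31853 with no filter. DESeq2 and the fit with no filter thus tested nearly the same number of genes, and why their counts differ was not tested. The fit with no filter is also the source of the adjusted edgeR p of 4.67e-06 for Gbp5. Leaving out each library gave 572 (without mouse 147) to 940 (without mouse 149). Of the 69 genes named with a fold change other than Gbp5, 68 kept their direction in all alternatives, and none but Lmo4 was called in any. The exception was Foxj1, at 0.216 in the fit as reported and from -0.00907 (without mouse 127) to 0.337 over fits that left out a library. Of 37 list medians, 20 kept their sign in all alternatives. The median of the choroid plexus list was 0.69, and -0.85 without mouse 127, and that of the medium spiny neuron list ran from -0.20 to 0.21. The interaction gave 0 calls in every alternative, and 532 genes at an unadjusted p under 0.05 with no replicate block, where Lmo4 stood at -0.18. Depth limits Gbp5 and other genes under about 1 CPM, where few reads set the level.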

Other observations

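The other lists also held no gene that passed after adjustment by edgeR, Lmo4 aside. Of 7 metabotropic glutamate receptor genes 1 was above 0 (median log2 fold change -0.04). Of 8 endocannabinoid genes 7 were above 0 (median 0.06), among them Faah, which breaks down anandamide, with medians of 118 CPM in Lmo4gt/+ BLA and 116 CPM in WT BLA (0.10 ± 0.05), and Napepld, which makes it, with medians of 21.5 and 18.8 CPM in Lmo4gt/+ and WT BLA (0.18 ± 0.10). Of 12 serotonin receptor genes 8 were above 0 (median 0.04), and Htr3a was the only 1 with an unadjusted p under 0.05. Of 10 genes of dopamine receptors and cAMP signalling 5 were above 0 (median -0.0045), and of 20 potassium channel genes 15 were (median 0.02). Of 22 nuclear genes of oxidative phosphorylation 5 were above 0 (median -0.02, and 0.0135 with 2 surrogate variables in the fit). Of 8 genes of deep cortex and claustrum, which lie beside the BLA, 3 were above 0 (median -0.06).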
